A study of Rattus norvegicus with 16 samples.

Results

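Sensory neuron identity transcription factors were taken as the rows of the deposited tables whose symbol was Isl1, Pou4f1, Pou4f2, Pou4f3, Runx1, Runx3, Prdm12, Drgx, Tlx3 or Etv1. Each of these 10 symbols named 1 of the 21021 genes in the tables. The ganglia came from adult female Sprague-Dawley rats that received Walker 256 mammary carcinoma cells in the left tibia (tumor cell implantation, TCI) or a sham injection, and no group carried an engineered allele. Dorsal root ganglia (DRGs) at L3–L5 on the treated side were pooled per animal into 1 sample and taken 1, 7 or 14 days after TCI, and each of the 4 groups had 4 samples. The labels place the sham ganglia at day 14 only, so time since surgery and tumor cannot be told apart on days 1 and 7. The labels give the sham injection as PBS, whereas the methods give boiled tumor cells. The question was whether the program that keeps a sensory neuron in its class was held at its level while the ganglion responded to the tumor.

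These proteins bind DNA and, in the embryo, turn a neural crest cell into a sensory neuron of a given class. Isl1 and the POU-domain factor Pou4f1 act in nearly all sensory neurons and shut off the genes of other neuron types, Prdm12, Tlx3 and Drgx act in the pain and itch lineage, and Runx1, Runx3 and Etv1 separate unmyelinated nociceptors from muscle proprioceptors. Many of them stay on in adult neurons, where they maintain receptor and channel genes of each class.

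The DNA just upstream of the start sites differed in base composition and in short motifs between the members. RefSeq windows on the GRCr8 build were matched for 10 of 10 members, with 12 windows in all since Runx3 and Prdm12 have 2 each. The 250 bases before each start were searched on both strands for TAAT, the core bound by homeodomain proteins such as Isl1, Tlx3 and Drgx, and for ACCACA, the core bound by RUNX proteins. Overlapping matches were counted separately. TAAT was found in 6 of the 12 windows, and 57% of all 33465 windows of this length held it. ACCACA was found in 1 of 12, against 14.5% of all windows. The longer POU4 element ATNNNTAAT was found in 0 of 12, against 9.25%. The windows of 4 members are given here, those of Tlx3 and Drgx because they held the most TAAT matches, the upstream window of Runx3 because it alone held ACCACA, and that of Runx1 for comparison with this relative. The window of Pou4f3, the member with the largest difference between groups, is not shown. It was 69.2% G and C and held 0 matches of the 3 motifs. Capitals mark TAAT and ACCACA on either strand, and each sequence reads 5′ to 3′ toward the start.
Tlx3, chr10:18296552-18296801, minus strand: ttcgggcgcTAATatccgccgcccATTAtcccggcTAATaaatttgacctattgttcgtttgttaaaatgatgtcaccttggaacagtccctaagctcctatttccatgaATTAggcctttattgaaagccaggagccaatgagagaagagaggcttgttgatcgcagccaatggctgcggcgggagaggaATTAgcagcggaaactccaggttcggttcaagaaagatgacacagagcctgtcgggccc
Drgx, chr16:7860907-7861156, plus strand: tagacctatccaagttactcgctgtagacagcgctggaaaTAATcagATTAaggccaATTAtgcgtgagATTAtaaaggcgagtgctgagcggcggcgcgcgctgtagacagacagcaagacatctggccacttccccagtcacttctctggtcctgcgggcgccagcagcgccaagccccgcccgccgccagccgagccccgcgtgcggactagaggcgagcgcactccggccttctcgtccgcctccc
Runx1, chr11:45421326-45421575, minus strand: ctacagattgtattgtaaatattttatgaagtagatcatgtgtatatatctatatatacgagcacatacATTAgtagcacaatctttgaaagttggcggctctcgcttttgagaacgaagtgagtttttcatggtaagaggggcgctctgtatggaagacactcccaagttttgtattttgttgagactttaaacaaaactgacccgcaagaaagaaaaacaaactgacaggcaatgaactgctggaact
Runx3, chr5:152644020-152644269, plus strand: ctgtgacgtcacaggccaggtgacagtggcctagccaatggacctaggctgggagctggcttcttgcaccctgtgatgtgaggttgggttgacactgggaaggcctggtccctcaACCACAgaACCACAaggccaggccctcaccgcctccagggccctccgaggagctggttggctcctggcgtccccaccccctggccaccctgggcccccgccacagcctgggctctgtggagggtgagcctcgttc
Tlx3 held 5 TAAT matches and Drgx 4, Runx1 held 1, and the Runx3 window held 2 ACCACA matches separated by a pair of bases. The Runx1 window was 37.2% G and C, against 66.4% for the Runx3 window and a median of 51.2% over all windows. A match of these letters is a description of the window and not evidence of binding.

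Expression is given as FPKM, a fragment count divided by transcript length and by the total of the sample, so that levels of different genes can be compared. Group values are means ± SD over the 14 samples the study used (sham, n = 4, TCI day 1, n = 3, day 7, n = 3, day 14, n = 4). Replicate 2 of TCI day 1 and replicate 3 of TCI day 7 were left out by the study and are given separately. Differences were tested with limma on log2(FPKM + 1) in 1 fit over all groups, and a gene was called at a Benjamini-Hochberg adjusted p of at most 0.05 over the 14023 genes tested. All 10 members passed the filter of 1 FPKM in 3 samples.

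Both left-out samples stood apart in cell markers. In TCI day 7 replicate 3 the summed level of 13 skeletal muscle markers was 25470 FPKM, against 240 to 297 FPKM in the other day 7 samples, whose sum came mostly from Pvalb (250 FPKM on average), which proprioceptors also express. Its 10 members lay at 0.602 to 0.790 of the mean of the other day 7 samples, with a median of 0.652, and 15 pan-neuronal genes had a median of 0.679. In TCI day 1 replicate 2 the sum of 10 Schwann cell markers was 20980 FPKM, against 12700 to 14100 FPKM in the other day 1 samples. Sham replicate 4 had a muscle sum of 905.9 FPKM, the others 298.5 to 312.2 FPKM. The tables hold no read totals, and relative depth, read from the smallest values of 8 to 22 low genes a sample, spanned 0.880 to 1.07. Neuronal genes were abundant in each sample, and the pan-neuronal list (neurofilaments, synaptic and RNA-binding proteins of neurons) summed to 17700 to 18600 FPKM in sham.

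The levels had a stable order. In sham, Pou4f1 averaged 47.2 ± 1.19 FPKM, Tlx3 45.6 ± 3.29, Prdm12 40.6 ± 3.12, Drgx 36.0 ± 1.24, Etv1 30.5 ± 3.01, Isl1 27.4 ± 1.77, Pou4f3 14.2 ± 0.523, Runx1 9.38 ± 0.823, Runx3 6.35 ± 0.699 and Pou4f2 4.53 ± 0.378 (SD, n = 4). Pou4f1 lay at percentile 86.8 of the sham levels of genes tested and Pou4f2 at percentile 31.1. Prdm12 held rank 3, Drgx rank 4, Runx3 rank 9 and Pou4f2 rank 10 in each of 16 samples. Neighbours whose sham ranges overlapped were Pou4f1 and Tlx3, Tlx3 and Prdm12, and Etv1 and Isl1. Within samples, however, Tlx3 was above Prdm12 in 16 of 16, whereas Pou4f1 was above Tlx3 in 6 of 16. Pou4f3 was above Runx1 in 12 of 16 samples, and the exceptions were 3 samples of day 7 or day 14 among the 14 used and the left-out day 7 sample.

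**Figure D1:**
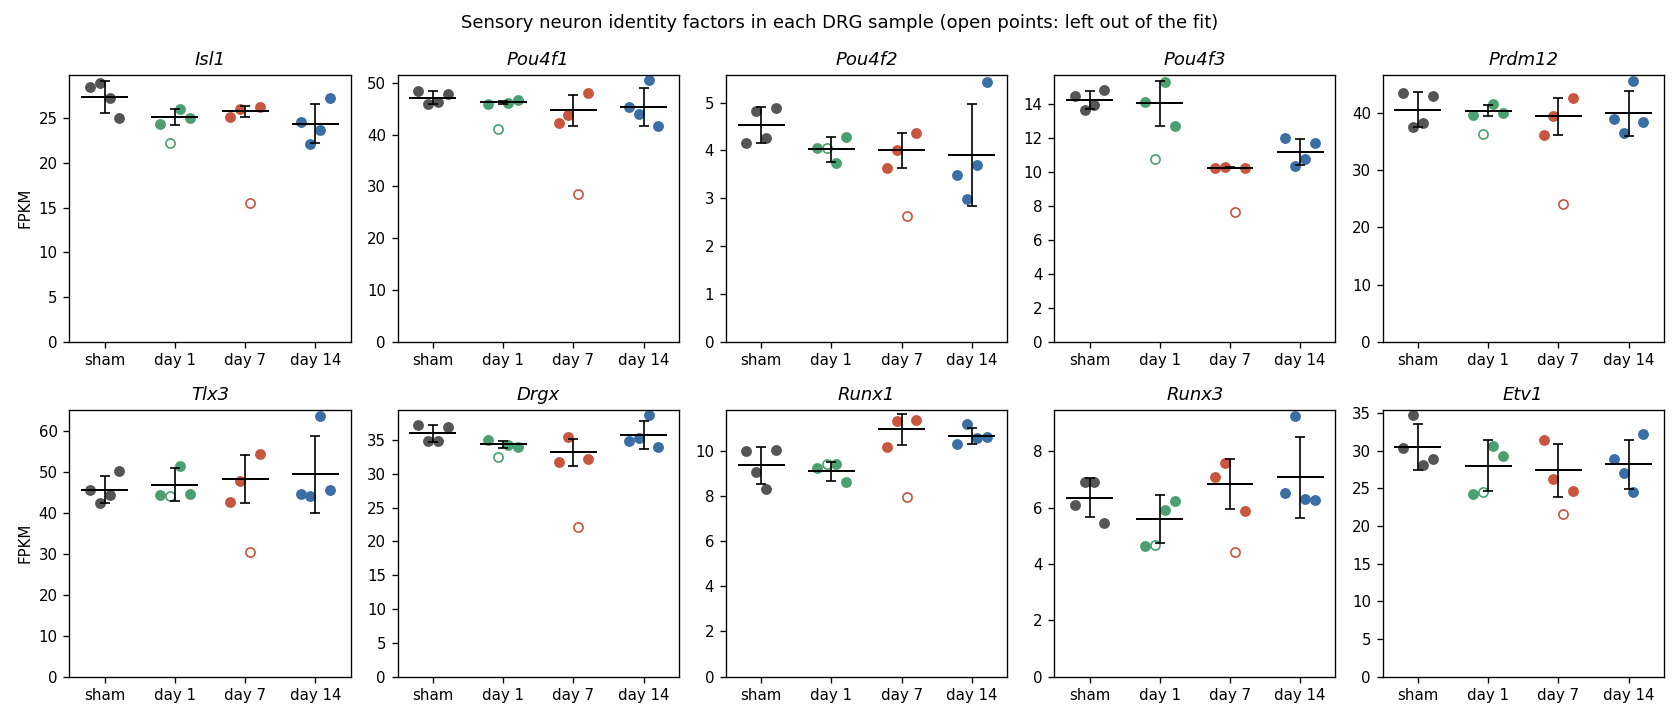
FPKM (y axis, from 0) of each of the 10 factors in sham and TCI day 1, 7 and 14 samples (x axis). Filled points are samples in the fit, open points the 2 samples left out, bars the mean ± SD of the filled points. Pou4f3 on day 7 (10.21 to 10.27) lies below each sham sample (13.64 to 14.81), while Pou4f1 overlaps sham on each day.

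On TCI day 1, 0 members were called. The same was so over the whole table, with 0% of genes lower and 0% higher, the smallest limma adjusted p being 0.736. At an unadjusted p under 0.05 there were 734 genes (5.23%) and 0 members. The members' log2 fold changes from −0.16 (Runx3) to 0.04 (Tlx3) had a median of −0.05, against 0.00 over all genes tested. The widest 95% interval, that of Runx3, ran from −0.45 to 0.13, so that a moderate drop lay within the error of this comparison.

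On TCI day 7, 1 member fell and 1 rose, Pou4f3 and Runx1. Over all genes, 3.45% (484) were lower and 14.5% (2028) higher, a split that depended on the scaling, with 2320 lower and 1341 higher after quantile normalization and 40 lower and 6636 higher when centred on pan-neuronal genes. The members' median log2 fold change was −0.08, against 0.04 over all genes tested. Below 0 lay 7 of 10 members and 5574 of the 14023 genes. This too depended on the scaling, and when centred on pan-neuronal genes the medians were 0.10 and 0.22. On TCI day 14, 1 member fell, again Pou4f3, and 0 rose, against 3.21% (450) lower and 11.9% (1670) higher over all genes, or 1547 and 1101 after quantile normalization and 61 and 4697 when centred. The median was −0.04, against 0.03. The day 7 and day 14 comparisons share their sham samples and are not independent. The stricter limits of the study (a change of 1 or more on the log2 scale either way, with adjusted p no higher than 0.001) were also applied to the limma fit. With them 0 members passed on day 7 or day 14, against 1.83% and 0.642% of genes in either direction. The study applied these limits to a different test and reported more genes on both days. From day 7 to day 14, 0 members were called, and the background was 0.0927% lower and 0.00713% higher.

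**Figure D2:**
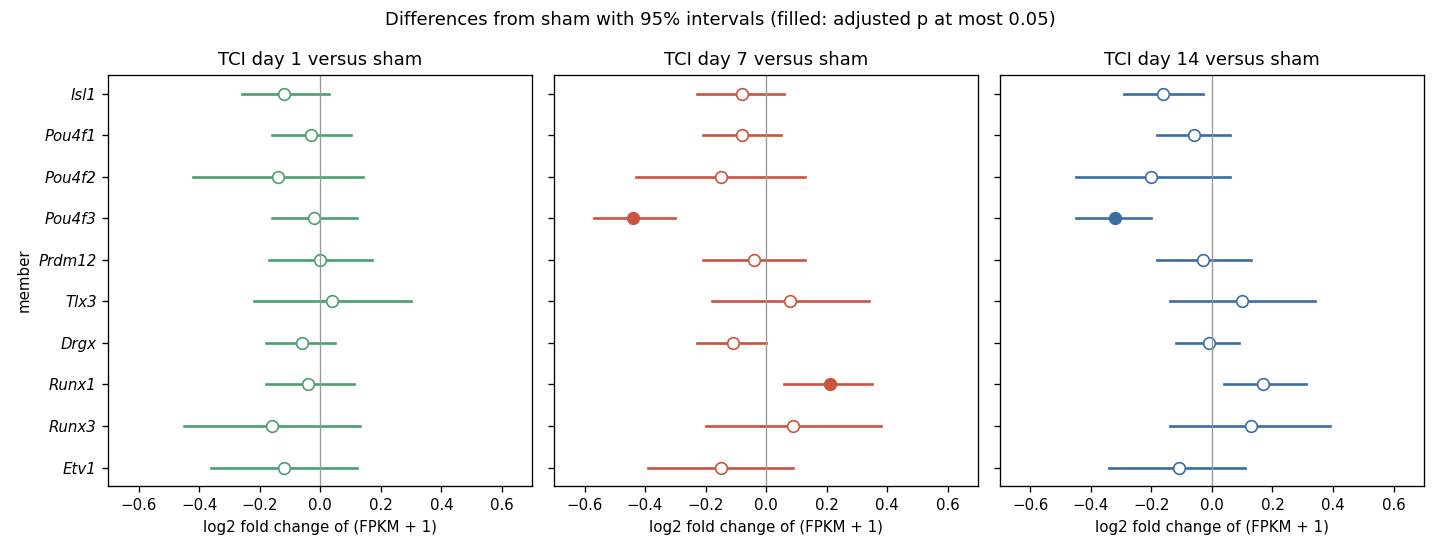
Log2 fold change of FPKM + 1 against sham (x axis) for each factor (y axis) on each day, with 95% intervals from limma. Filled points are called. Pou4f3 on day 7 (−0.44) and day 14 (−0.32) and Runx1 on day 7 (0.21) are filled.

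Isl1, a LIM-homeodomain factor needed for sensory neurons to leave the generic progenitor program, was 28.50, 28.95, 27.23 and 24.99 FPKM in sham. It was 24.32, 26.08 and 25.08 FPKM on day 1 and 22.23 in the left-out sample. The day 7 samples held 25.10, 26.08 and 26.25 FPKM (15.53 left out), and those of day 14 held 24.60, 22.09, 23.73 and 27.27 FPKM. Each sample after TCI except day 14 replicate 4 lay below 3 of the sham samples, but sham replicate 4 lay within their range, so the groups overlapped on each day. On day 14 the log2 fold change was −0.16 (95% interval −0.29 to −0.03), and limma's adjusted p of 0.0935 missed the threshold. This call depended on single samples. Isl1 was called lower on day 14 without sham replicate 4 (−0.20, limma's adjusted p = 0.0496), without day 14 replicate 4 (−0.21, 0.0229) and with quantile normalization (−0.20, 0.0371), and over all 18 alternatives the adjusted p ran from 0.0229 to 0.730. On days 1 and 7 the changes were −0.12 (−0.26 to 0.03) and −0.08 (−0.23 to 0.06).

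Pou4f1 (Brn3a) is the POU factor of most sensory neurons and works together with Isl1. Its sham values were 48.40, 45.94, 46.40 and 47.95 FPKM. Values on day 1 were 45.97, 46.18 and 46.60 (41.10 left out), on day 7 42.21, 43.81 and 48.01 (28.59 left out), and on day 14 45.32, 44.03, 50.47 and 41.62 FPKM. The ranges overlapped on each day, and the largest change in size was −0.08 on day 7 (95% interval −0.21 to 0.05, limma's adjusted p = 0.408). Over the 14 samples the highest value was 1.21 times the lowest, the smallest span among the 10 members.

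Pou4f3 (Brn3c), a POU factor found in a subset of DRG neurons and best known from inner ear hair cells, was the member with the clearest difference. It was 14.44, 13.64, 13.92 and 14.81 FPKM in sham and 14.07, 15.28 and 12.68 on day 1 (10.72 left out). It was 10.21, 10.27 and 10.21 FPKM on day 7 (7.65 left out) and 11.96, 10.33, 10.72 and 11.66 FPKM on day 14. Each day 7 and day 14 sample lay below each sham sample, and the day 1 samples lay on both sides of the sham range. Groups that do not overlap in this direction were found for 10.1% of genes on day 7 and 5.38% on day 14. On day 7 the mean was 0.720 of sham, with a log2 fold change of −0.44 (SE 0.0638, 95% interval −0.57 to −0.30, limma's adjusted p = 6.12e-04). On day 14 it was 0.786 of sham, with −0.32 (SE 0.0591, −0.45 to −0.20, limma's adjusted p = 0.00361). In bulk RNA, fewer cells that express a gene and less RNA per cell cannot be told apart.

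The day 7 fall of Pou4f3 was called in each fit that left out 1 sample, with log2 fold changes from −0.45 to −0.42. Over all 16 samples it was −0.53 (limma's adjusted p = 0.00204). That fit takes in the left-out day 7 sample, in which all 10 members were low. The members' median on day 7 moved with it, from −0.08 to −0.23, so the larger fall is not particular to Pou4f3. Over 17 alternatives the adjusted p of Pou4f3 in limma on day 7 ran from 2.18e-04 to 0.0132. On day 14 the fall of Pou4f3 was called in each of 8 fits that left out 1 sample, from −0.35 to −0.29. Over all 16 samples, however, its adjusted p in limma was 0.0574, at the same log2 fold change of −0.32. This was the highest of 18 alternatives, the lowest being 0.00163. From day 7 to day 14 the change was 0.11 (−0.02 to 0.25, limma's adjusted p = 0.583).

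Pou4f2 (Brn3b), a relative of both and a regulator of retinal ganglion cells, was the lowest member. Sham samples held 4.16, 4.83, 4.25 and 4.88 FPKM and day 1 samples 4.06, 3.74 and 4.27 (4.05 left out). Day 7 samples held 3.64, 4 and 4.36 (2.63 left out), and day 14 samples 3.48, 2.98, 3.70 and 5.44 FPKM. Day 14 had both the lowest and the highest value of the samples used, and overlapped sham through replicate 4. The day 14 change was −0.20 (−0.45 to 0.06, limma's adjusted p = 0.300), and without day 14 replicate 4 Pou4f2 was called lower (−0.34, limma's adjusted p = 0.0178, with a range of 0.0178 to 0.706 over 18 alternatives). Within each sample Pou4f3 can be read against Pou4f1. The ratio of Pou4f3 to Pou4f1 was 0.297 to 0.309 in sham and 0.272 to 0.331 on day 1. It was 0.213 to 0.242 on day 7 and 0.212 to 0.280 on day 14, below each sham sample. In the left-out samples it was 0.261 on day 1 and 0.268 on day 7, also below each sham sample. The left-out day 7 sample had the lowest level of all 16 samples for each of the 10 members, Pou4f3 among them.

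**Figure D3:**
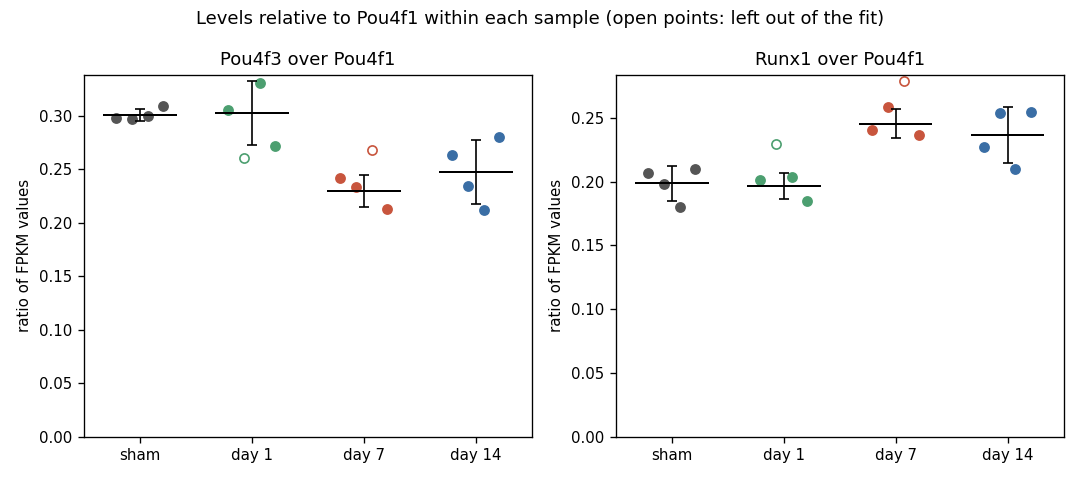
Ratio of FPKM to that of Pou4f1 in the same sample (y axis, from 0) for Pou4f3 and Runx1 in each group (x axis). Filled points are samples in the fit, open points the 2 left out, bars the mean ± SD. The Pou4f3 ratio averages 0.301 in sham and 0.230 on day 7, the Runx1 ratio 0.199 and 0.246.

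Prdm12, a chromatin regulator without which nociceptors do not form, was 43.59, 37.63, 38.27 and 43.04 FPKM in sham and 39.68, 41.59 and 40.08 on day 1 (36.39 left out). It was 36.22, 39.50 and 42.59 FPKM on day 7 (24.15 left out) and 39.03, 36.57, 45.63 and 38.53 FPKM on day 14. Sham itself held a higher and a lower pair of samples, the day 1 samples used lay between these pairs, and days 7 and 14 each had a sample below the sham range. The changes were −0.00, −0.04 and −0.03 on days 1, 7 and 14, with intervals inside −0.21 to 0.17. The smallest of the 3 adjusted p-values in limma was 0.765.

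Tlx3, a homeobox factor of nociceptive and itch neurons, was 45.53, 42.37, 44.37 and 50.12 FPKM in sham. On day 1 it was 44.33, 51.53 and 44.71 (44.19 left out), on day 7 42.67, 47.79 and 54.34 (30.49 left out), and on day 14 44.49, 44.19, 63.56 and 45.54 FPKM. In the day 1 and day 14 groups a single sample was far above the others, and the rest lay within the sham range. The day 14 change of 0.10 (−0.14 to 0.34, limma's adjusted p = 0.591) became −0.02 without day 14 replicate 3.

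Drgx, a paired-like homeobox factor of nociceptors that project to the superficial dorsal horn, was 37.17, 34.90, 34.89 and 36.89 FPKM in sham and 34.94, 34.24 and 33.88 on day 1 (32.44 left out). It was 31.79, 35.50 and 32.20 FPKM on day 7 (22.16 left out) and 34.91, 35.22, 38.66 and 33.98 FPKM on day 14. Of the day 7 samples 2 lay below the sham range and 1 within it. The day 7 change of −0.11 had an unadjusted p of 0.0460 and an adjusted p of 0.152 in limma, and with quantile normalization it was −0.17 and called (0.0288, the lowest of 17 alternatives, the highest being 0.549). On day 14 it was −0.01 (−0.12 to 0.09). Over the 14 samples Prdm12 had a Pearson r of 0.83 with Pou4f1, 0.81 with Tlx3 and 0.57 with Drgx, as a description of samples that share library and normalization, and Pou4f3 had 0.33 with Pou4f1.

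Runx1, which drives the non-peptidergic nociceptor class and is also a blood cell factor, was 10.02, 9.10, 8.34 and 10.06 FPKM in sham. It was 9.25, 9.44 and 8.62 on day 1 (9.44 left out), 10.17, 11.34 and 11.40 on day 7 (7.97 left out) and 10.31, 11.20, 10.60 and 10.61 FPKM on day 14. The samples used from days 7 and 14 all lay above the highest sham sample, the nearest being 10.17 against 10.06 FPKM, whereas the left-out day 7 sample was the lowest of all 16. Groups that do not overlap in this direction were found for 23.8% of genes on day 7 and 13.8% on day 14. Runx1 rose by 0.21 on the log2 scale on day 7 (95% interval 0.06 to 0.35, limma's adjusted p = 0.0467). On day 14 the change was 0.17 (0.04 to 0.31, limma's adjusted p = 0.0766).

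The day 7 call of Runx1 was near the threshold. It was lost without sham replicate 2, sham replicate 3, day 7 replicate 2 or day 7 replicate 4, and over all 16 samples the change was 0.10 (limma's adjusted p = 0.438). Over 17 alternatives the adjusted p ran from 0.00113 to 0.438 and was at most 0.05 in 8. The ratio of Runx1 to Pou4f1 was 0.180 to 0.210 in sham. On day 1 it was 0.185 to 0.204, with 0.230 in the left-out sample, above each sham sample. It was 0.237 to 0.259 on day 7, with 0.279 in the left-out sample, and 0.210 to 0.255 on day 14. Macrophage markers were also higher on days 7 and 14. Their 13 genes summed to 67.1 to 129 FPKM in sham, 926 to 1250 FPKM on day 7 and 518 to 1820 FPKM on day 14, and 13 of 13 rose on day 7 and 11 of 13 on day 14. Within groups the order varied. The left-out day 7 sample had a macrophage sum of 820.9 FPKM and the lowest Runx1, 7.97 FPKM. Among the day 7 samples used, replicate 4 had the lowest sum, 926.3 FPKM, and the highest Runx1, 11.40 FPKM. On day 14 replicate 2 was the highest for both, at 1818 and 11.20 FPKM. The lysozyme gene Lyz2 went from 55.0 FPKM in sham to 663 on day 7, and Cd68 from 2.17 to 25.0. The 18 T and NK cell markers summed to 7.36 to 10.9 FPKM in sham and 61.0 to 139 FPKM on day 7. Of the 16 tested 15 rose on day 7 and 13 on day 14. Many of them, such as Cd3e at 0.0525 FPKM in sham, passed the filter of 1 FPKM only through day 7 and day 14 samples. The count of rises in this list was therefore largely set by the filter, and no conclusion is drawn from it. Cd8b was at 0 in sham. The part of immune cells in the Runx1 values was not tested.

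Runx3, which specifies proprioceptors and is also active in T and NK cells, was 6.10, 6.92, 6.90 and 5.47 FPKM in sham and 4.64, 5.93 and 6.24 on day 1 (4.68 left out). It was 7.07, 7.59 and 5.87 FPKM on day 7 (4.42 left out) and 6.51, 9.24, 6.30 and 6.26 FPKM on day 14. Day 14 replicate 2 held the highest value, and it also had the highest macrophage sum, 1818 FPKM, and the highest T and NK sum of its group, 138.2 FPKM. Day 7 replicate 2 had a T and NK sum of 138.9 FPKM with Runx3 at 7.59 FPKM. The part of immune cells in the Runx3 values was not tested. The changes were 0.09 on day 7 (−0.20 to 0.38) and 0.13 on day 14 (−0.14 to 0.39, limma's adjusted p = 0.535).

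Etv1 (Er81), an ETS factor that proprioceptors need to connect with motor neurons, was 30.34, 34.80, 28.07 and 28.83 FPKM in sham. On day 1 it was 24.20, 30.64 and 29.25 (24.53 left out), on day 7 31.39, 26.23 and 24.62 (21.65 left out), and on day 14 28.92, 27.04, 24.47 and 32.27 FPKM. Each later group held samples below the sham range and samples within it. The changes were −0.12, −0.15 and −0.11 on days 1, 7 and 14. The day 7 interval was −0.39 to 0.09, and limma's adjusted p was 0.390.

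General neuronal genes were read as the scale for these factors. The mean log2(FPKM + 1) of the 15 pan-neuronal genes was 8.55 ± 0.03 in sham and 8.51 ± 0.02 on day 1, a log2 difference of −0.03 (two-sided exact permutation p = 0.257). It was 8.37 ± 0.04 on day 7, a log2 difference of −0.18 (exact permutation p = 0.0286, the smallest this design allows), and 8.42 ± 0.08 on day 14, a difference of −0.13 (exact permutation p = 0.0857). On day 7 Nefl, Nefm, Nefh, Snap25 and Rbfox3 fell, 5 of 15 genes, and on day 14 Nefl, Nefm, Nefh, Snap25 and Elavl4. Over all genes, 3.45% were lower on day 7 and 3.21% on day 14. A short version of the list left out Nefl, Nefm, Nefh, Prph and Avil. Its difference was −0.15 on day 7 (exact permutation p = 0.0286) and −0.09 on day 14 (exact permutation p = 0.114). The neurofilament gene Nefl went from 4550 FPKM in sham to 3720 on day 7 and 3640 on day 14. The 10 factors summed to 253 to 268 FPKM in sham, 240 to 260 on day 7 and 243 to 278 on day 14.

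**Figure D4:**
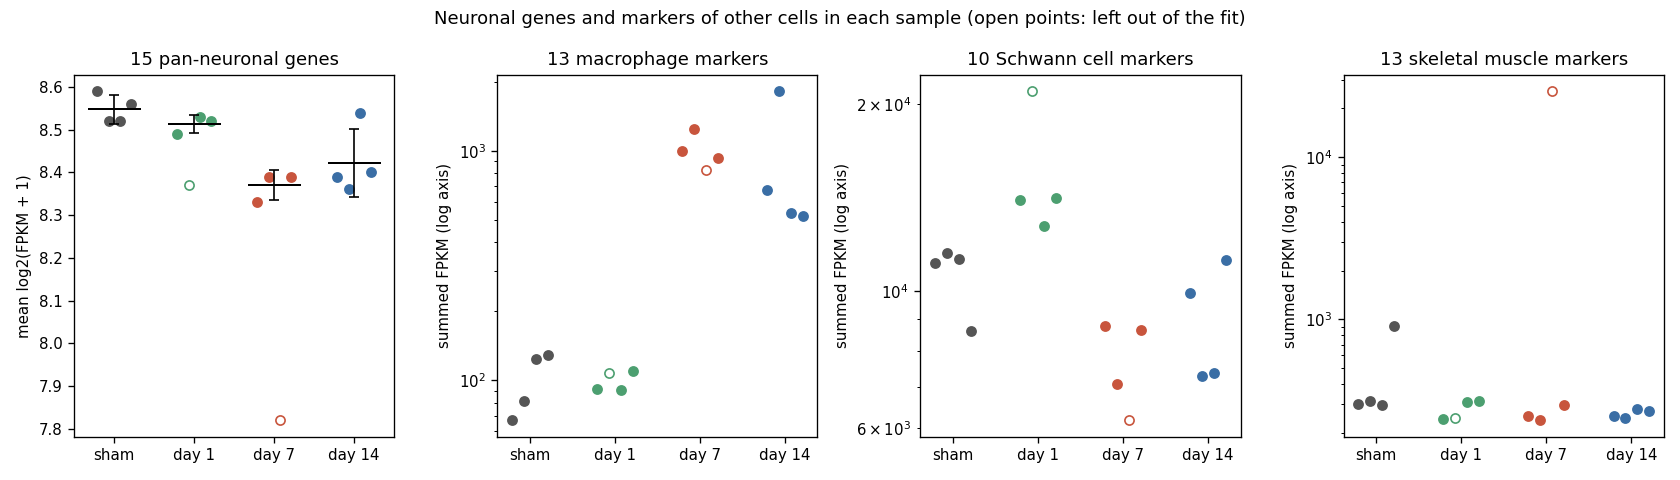
Mean log2(FPKM + 1) of 15 pan-neuronal genes (y axis, not from 0) and summed FPKM of macrophage, Schwann cell and skeletal muscle markers (log y axes) in each group (x axis). Filled points are samples in the fit, open points the 2 left out, bars in the first panel the mean ± SD. Macrophage sums are 67.1 to 129 in sham and 926 to 1250 on day 7, and the left-out day 7 sample has a muscle sum of 25470.

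When each sample was centred on its pan-neuronal mean and all genes were fitted again, the median of all genes moved up by 0.18 on day 7 and 0.13 on day 14. Of the 14023 genes tested, 6636 were then called higher and 40 lower on day 7, and 4697 and 61 on day 14. Among the 10 members 2 were higher and 1 lower on each day, a lower share of rises than over all genes. On this scale Pou4f3 was still called lower, at −0.26 on day 7 (95% interval −0.42 to −0.10, limma's adjusted p = 0.0132) and −0.19 on day 14 (−0.34 to −0.04, limma's adjusted p = 0.0453). Runx1 was called higher on both days, at 0.38 (limma's adjusted p = 0.00113) and 0.30 (0.00418). Tlx3 was called higher on day 7, at 0.25 (limma's adjusted p = 0.0403). Drgx was called higher on day 14, at 0.12 (limma's adjusted p = 0.0372), although without centring it was −0.01. The highest adjusted p over their alternatives was 0.971 for Tlx3 on day 7 and 0.997 for Drgx on day 14. The members' median became 0.10 on day 7 and 0.09 on day 14, in place of −0.08 and −0.04. Isl1, Pou4f1, Pou4f2, Prdm12, Runx3 and Etv1 were not called on either day. Their log2 differences ranged from −0.07 to 0.27, and the interval of Pou4f1 was 0.00 to 0.19 on day 7.

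Other regulators of the sensory lineage were compared as a list of 28 genes, of which 22 were tested. On each of days 7 and 14, 3 of 22 rose and 0 fell, a share of rises near the background of 14.5% and 11.9% of all genes higher. The list's median log2 fold change was −0.03 and −0.04, against 0.04 and 0.03 over all genes. They included Eya2, a coactivator that pairs with homeodomain proteins, at 2.69 FPKM in sham and 6.48 on day 7 (log2 fold change 1.03, limma's adjusted p = 2.08e-04), and Ebf2, at 1.65 and 3.81 FPKM (0.86, 8.23e-04). Maf, which acts in touch neurons, was 27.7 FPKM in sham and 29.7 on day 7, and Shox2 15.2 and 14.8 FPKM, and neither was called. The macrophage sums were raised in these same day 7 and day 14 samples, and the part of immune cells in the values of Eya2 and Ebf2 was not tested.

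Partners of the Runx and LIM members were a list of 14 genes, all tested. On day 7, 2 of 14 rose, near the background of 14.5% of genes higher, and on day 14 1 of 14, under the background of 11.9%, and 0 fell. Ldb1, the scaffold that joins LIM-homeodomain proteins such as Isl1, rose from 26.4 FPKM in sham to 34.4 on day 7 (log2 fold change 0.37, limma's adjusted p = 0.00165) and 35.4 on day 14 (0.41, 0.00101). Lmo2, a LIM-only protein of blood and vessel cells, rose from 6.23 to 11.6 FPKM on day 7 (0.80, limma's adjusted p = 0.00968). Cbfb, the obligate partner of Runx proteins, was 58.2 FPKM in sham, 55.9 on day 7 and 55.6 on day 14, and was not called. The list's median log2 fold change was 0.10 on day 7 and 0.03 on day 14. Macrophage sums in the same samples were 926 to 1250 FPKM on day 7 and 518 to 1820 FPKM on day 14, against 67.1 to 129 FPKM in sham, and the part of immune cells in the values of Ldb1 and Lmo2 was not tested.

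The genes that mark the classes these factors set were then read beside them. Over all genes tested, 3.45% were lower and 14.5% higher on day 7, and 3.21% and 11.9% on day 14. Of 14 non-peptidergic and cold nociceptor genes 0 were called on day 7 or day 14, with medians of −0.01 and −0.09. Ret, the GDNF family receptor of this class, was 155 FPKM in sham, 144 on day 7 and 142 on day 14, and Cd55, a complement regulator on these neurons, was 115, 114 and 109 FPKM. Of 7 peptidergic genes tested 0 were called on either day, and Calca, which encodes CGRP, was 698 FPKM in sham, 713 on day 7 and 641 on day 14. Tac1, the precursor of substance P, was 231, 195 and 205 FPKM. Of 10 proprioceptor and touch neuron genes 2 fell on day 7, Cntnap2 from 22.0 to 16.6 FPKM (log2 fold change −0.40, limma's adjusted p = 0.00864) and Slc17a7, the vesicular glutamate transporter, from 142 to 125 FPKM (−0.19, 0.0346). On day 14 the BDNF receptor gene Ntrk2 fell from 48.9 to 37.9 FPKM (−0.37, limma's adjusted p = 0.0132).

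Nerve injury response genes, which rise in axotomized neurons, gave 1 rise of 11 tested on each day, and 0 fell. This share of rises was under the background of 14.5% of genes higher on day 7 and 11.9% on day 14. The background of genes lower was 3.45% and 3.21%. The rises were Jun on day 7 (37.5 to 45.7 FPKM, log2 fold change 0.28, limma's adjusted p = 0.0245) and Gadd45a on day 14 (20.6 to 24.8 FPKM, 0.26, 0.0217). Atf3, the common marker of axon injury, was 7.20 FPKM in sham, 8.09 on day 7 (log2 fold change 0.24, 95% interval −0.47 to 0.95) and 9.14 on day 14. Among cells around the neurons, 0 of 10 Schwann cell markers were called on day 7. Of 10 satellite glia markers 2 rose on day 7, Gfap and Glul, and 2 fell, Bcan and Kcnj10, while on day 14 Bcan and Kcnj10 fell. None of 6 skeletal muscle markers tested was called in the 14 samples.

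The genes most like each member were taken as the 3 with the highest Pearson r of log2(FPKM + 1) over the 14 samples, as a description of samples that share library and normalization. For Pou4f3 they were Arc (r = 0.97), Itga7 (0.93) and Nptx1 (0.92), and with group means removed these were 0.72, 0.70 and 0.66. For Runx1 they were Sh3gl1 (r = 0.92), Fmnl1 (0.91) and Bcl2l12 (0.90), and with group means removed these were 0.74, 0.72 and 0.69. For the members that overlapped sham on each day, the first was Dym for Pou4f1 (0.90), Gucy1b3 for Isl1 (0.91), Wdr92 for Pou4f2 (0.86), Btbd2 for Tlx3 (0.96), Blmh for Prdm12 (0.92), Hip1r for Drgx (0.86), Atf7ip for Runx3 (0.90) and Pde1c for Etv1 (0.89). None of these was another member.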

How the data were processed

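The authors filtered low-quality reads, aligned those kept with HISAT and Bowtie2, estimated expression with RSEM and deposited FPKM per gene, 1 table per sample. The labels name Illumina library protocols, the methods the BGISEQ platform. Genome build and annotation are not given in the sources used here. FPKM is scaled to each sample's total, so a large rise in some genes lowers the others, and read counts and counting error could not be recovered. At most 2.78% of the values above 0 were identical between any pair of samples.

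From these values log2(FPKM + 1) was fitted with limma 3.58.1 in R 4.3.3 (lmFit, eBayes with trend) over the 14023 genes reaching 1 FPKM in 3 or more of 14 samples, all 4 groups in 1 fit, with Benjamini-Hochberg adjustment over all of them. Fold changes of low genes are understated by the pseudocount of 1. The pan-neuronal mean was compared by two-sided exact permutation tests. The fit was tried on simulated data with independent noise for each gene. The planted changes were larger than those of the members in the fit reported, and smaller ones were not simulated. Named were all 10 members, up to 4 called genes with the largest fold from each list (the 2 with the highest mean where none was called) and the 3 genes most like each member. Atf3, Cbfb, Maf, Shox2, Cd68, Cd8b and Pvalb were named after their values were seen. The members, lists and tests were chosen with earlier results of these data known. Motifs were searched with Python 3.11.15, and figures were drawn with matplotlib 3.10.9. Results for 2 genes of these lists are not reported here.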

Additional observations from a re-analysis of the deposited data

Results flagged for a closer look

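In 6 of the 40 groups formed by 10 members and 4 groups of 4 samples, 1 sample lay far from the other 3 by Dixon's test, and chance alone flags about 1 in 20 groups. Both left-out samples account for 3 of them, Isl1 at 15.53 FPKM and Pou4f3 at 7.65 FPKM in TCI day 7 replicate 3, and Pou4f1 at 41.1 FPKM in TCI day 1 replicate 2. The remaining 3 are samples of the fit, all above their groups. Tlx3 was 51.53 FPKM in TCI day 1 replicate 3 and 63.56 FPKM in TCI day 14 replicate 3, and Runx3 was 9.24 FPKM in TCI day 14 replicate 2.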

How the results depend on the processing

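Pou4f3 was called lower on day 7 in each alternative except the study's cut-offs. The count of members called higher on day 7, 1 in the fit reported, was 0 over all 16 samples, with only the groups compared, with quantile normalization, without the filter, with the study's cut-offs and with the replicate number as a block, and 2 when centred on the pan-neuronal list. The count called lower was 2 with quantile normalization and 0 with the study's cut-offs on both days, and 0 on day 14 over all 16 samples. On day 14 the count called higher was 2 when centred on the pan-neuronal list and 1 on its short version, and Drgx turned from −0.01 to 0.12. Leaving out 1 sample gave 0 to 1 called higher on day 7 and 1 to 3 called lower on day 14. The replicate numbers did not pair the samples, which come from different animals: of 18 same-numbered pairs 3 had a correlation over 0.1 (−0.1 to 0.27). With the block, Runx1 on day 7 was 0.19 (limma's adjusted p = 0.0987), and no other call changed. The pan-neuronal difference was −0.14 on day 14 with quantile normalization (exact permutation p = 0.0286). Leaving out 1 sample it ran from −0.19 to −0.15 on day 7, where the design could not pass the threshold, and from −0.17 to −0.11 on day 14, with p = 0.0286 by the exact permutation test without day 14 replicate 3. The causes were not tested.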
